A study of Danio rerio with 28 samples.

Results

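The monoamine synthesis and breakdown enzymes are the proteins that make dopamine, noradrenaline, serotonin and melatonin from tyrosine and tryptophan, and that inactivate them again. The set was fixed by gene name and holds 10 genes: ddc, th, th2, dbh, tph1a, tph1b, tph2, mao, aanat2 and comta. Probes were assigned to them through the RefSeq accession printed for each spot, which gave 11 probes for 8 genes out of 43603 probes on the array, of which 15163 carried the name of 1 of 10536 genes. For th and comta no probe was matched, and they are left out below. Here and in the lists below, a gene is said to have a probe where an accession matched. The array can hold probes of genes that were not matched. ddc, tph1b and mao had 2 probes each and the other 5 genes had 1.

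The samples were pools of 30 whole zebrafish embryos kept from about 3 hpf (hours post fertilization) in 1 µM 17β-estradiol (E2) or in its vehicle, 0.1% DMSO, so that both treatments carried DMSO. Pools were taken at 24, 48, 72 and 104 hpf, which are called 1, 2, 3 and 4 days post fertilization (dpf). Each treatment had 3 pools at both early stages and 4 at both later ones, each hybridized to 1 array with 1 dye. Replicates came from different spawnings of 1 strain, which the labels do not name, and an E2 pool and a DMSO pool with the same replicate number are called a pair. In the replicate 2 pair the arrays lay on different slides and in different scan batches at every stage, while each other pair shared a slide. Levels are log2 signals after quantile normalization, changes are differences of log2 signals from limma, and an array is said to be at background for a probe where its signal failed the scanner software's test for being well above background.

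Each of these enzymes has a place in a short chain. Tyrosine hydroxylase opens the path to dopamine and tryptophan hydroxylase the path to serotonin, and aromatic L-amino acid decarboxylase, encoded by ddc, completes both. Dopamine β-hydroxylase turns dopamine into noradrenaline, arylalkylamine N-acetyltransferase takes serotonin towards melatonin in the pineal gland, and monoamine oxidase and catechol O-methyltransferase break the amines down. In the zebrafish embryo such neurons are few cells in a large body, and RNA of the whole animal was measured, so that fewer cells of a type and less RNA per cell cannot be told apart.

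Between 58.1% and 96.1% of the spots were well above background, with a median of 71.0%. The highest share was that of E2 replicate 1 at 3 dpf and the next was 73.8%, and this array also received the lowest weight, 0.0456, when arrays were weighted by their residual spread. Nearly any signal on it passed the background test, so that being above background says little there. Several results at 3 dpf are therefore also given without it, and the others include it. The lowest share, 58.1%, was that of E2 replicate 4 at 4 dpf. It also had 529 outlier spots, against a median of 9, and a low weight, 0.226. The lowest signal above background on it was 4.35, so that dim probes easily count as at background there. Results at 4 dpf include it, save where single arrays were left out. As a sign of exposure, cyp19a1b (brain aromatase) rose with E2 by 5.38 at 3 dpf and by 6.67 at 4 dpf on the log2 scale (limma adjusted p = 1.33e-05 and 1.09e-07), with values of 0.64 and 2.60 at 1 and 2 dpf whose adjusted p was 1 (unadjusted p = 0.279 and 0.00023). Of 3 listed estrogen response genes 2 had a probe. The other, esr1, changed by -0.59, 0.43, 1.02 (0.70 without E2 replicate 1) and 2.06 in order of stage. Its adjusted p at 4 dpf was 0.235 in limma. Median signals over all probes moved with E2 at 3 dpf by -0.02 under quantile normalization and by 0.24 where each array was centred on its 75th percentile, and changes at that stage are relative to these shifts.

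The question put to these genes was whether E2 changed their transcript levels at any of the 4 stages. None of the 11 probes reached an adjusted p under 0.05 in limma at any stage. Over all probes this criterion was met by 0% at 1 dpf (lowest adjusted p of any probe 0.235), 0.00688% at 2 dpf, 0.0321% at 3 dpf and 0.0871% at 4 dpf, in limma. The median change of the 11 probes was -0.01, -0.04, -0.18 and -0.09 in order of stage, beside 0.02, 0.01, -0.02 and 0.00 for all probes. Without adjustment, 1, 1, 0 and 0 of the 11 probes had a p under 0.05 in order of stage, against 790, 577, 2748 and 1215 of all 43603. At 1, 2 and 4 dpf that is a smaller share of all probes than this limit gives where nothing changes. The p-values there can thus be too large. The study's own thresholds, an unadjusted p of at most 0.01 with a fold change of at least 1.4, were met by 1 of 11 probes at 1 dpf, where they were met by 0.406% of all probes, and by 1 of 11 at 2 dpf, against 0.229%. At 3 and 4 dpf they were met by 0 of 11, against 0.766% and 0.493%. Without E2 replicate 1 at 3 dpf, 170 of all 43603 probes met them at that stage, instead of 334. Both probes that met them belonged to ddc.

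The decarboxylase gene ddc was read by probes A_15_P111461 and A_15_P290506. In DMSO embryos at 1 dpf the log2 signal of A_15_P111461 was 4.66, 1.74 and 2.17 in replicates 1, 2 and 3, and only the first of these was above background. With E2 it was 0.51, 0.35 and 1.59, all at background. The E2 arrays lay below the DMSO arrays without overlap and below their partner in 3 of 3 pairs, and the fitted change was -2.04 (SE 0.61, limma adjusted p = 1), past the study's thresholds. No fold change is given, because 5 of the 6 arrays were at background and the DMSO mean did not exceed the lowest signal that could be measured in the E2 arrays. Without DMSO replicate 1, the single array above background, the change was -1.02 and no longer met the study's thresholds. Within the scan batch that held replicates 1 of both treatments and DMSO replicate 2 the difference was -2.69, and in the batch with replicate 3 it was -0.58.

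The other ddc probe gave no such difference at 1 dpf. A_15_P290506 read 0.44, 0.37 and 0.72 with DMSO and 0.44, 0.66 and 0.39 with E2, all at background, and the change was -0.01 (SE 0.39, limma adjusted p = 1).

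At 2 dpf it was this probe that met the study's thresholds. A_15_P290506 was at 1.81, 3.75 and 1.96 with DMSO, of which 3.75 in replicate 2 was above background, and at 1.17, 0.91 and 0.43 with E2, all at background. These groups did not overlap and E2 was lower in 3 of 3 pairs, with a change of -1.67 (SE 0.39, limma adjusted p = 1). The pair differences were -0.64, -2.84 and -1.53, and the largest came from replicate 2, whose arrays lay in different scan batches. Again no fold change can be given, for the same reason: 5 of the 6 arrays were at background. Without DMSO replicate 2, the single array above background, the change was -1.22 and still met the thresholds. The scan batches gave -1.61 and -1.53. A_15_P111461, which was above background on all 6 arrays at this stage, read 4.81, 4.85 and 4.60 with DMSO and 4.47, 4.58 and 4.18 with E2. It was lower in 3 of 3 pairs without overlap of the groups, but by only 0.35 on the log2 scale (change -0.35, SE 0.61, 95% interval -1.62 to 0.93, limma adjusted p = 1). This SE and interval rest on a spread shared by all groups, and at 2 dpf the SD was 0.13 with DMSO and 0.21 with E2. With this stage fitted alone in limma the unadjusted p was 0.0325 and the adjusted p 0.875.

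**Figure D1:**
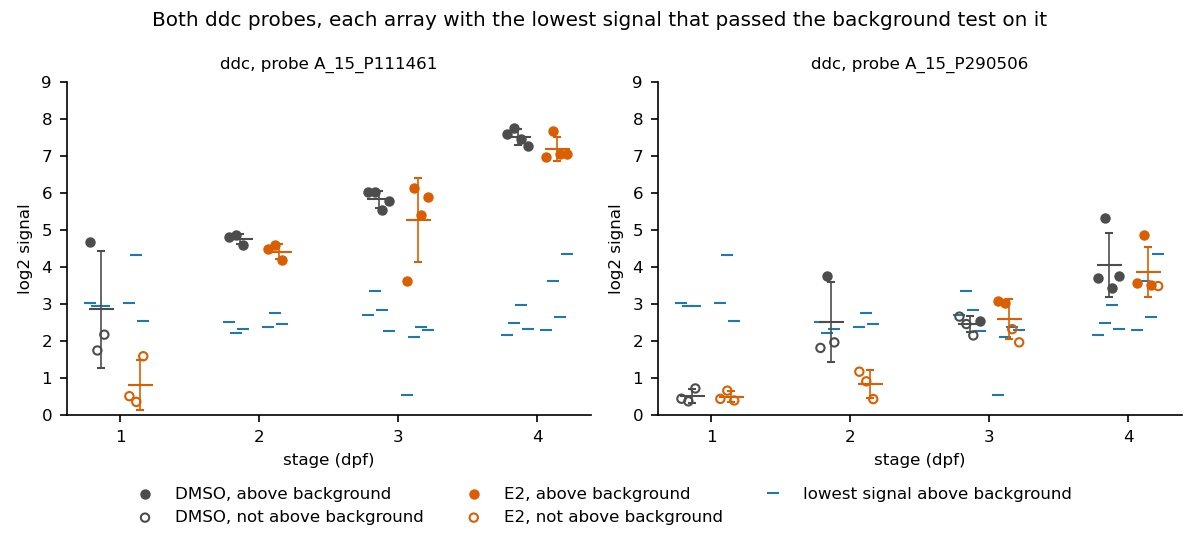
Log2 signal of the 2 ddc probes on each of the 28 arrays by stage in dpf, DMSO in grey and E2 in orange, with filled symbols for signals above background, open symbols for those at background, bars for the mean and SD of a group, and blue dashes for the lowest signal that passed the background test on that array. The E2 arrays of A_15_P111461 at 1 dpf (0.35 to 1.59) and of A_15_P290506 at 2 dpf (0.43 to 1.17) lie under the blue dashes.

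At 3 and 4 dpf A_15_P111461 was above background on every array, and neither probe met the study's thresholds. A_15_P111461 was at 6.01, 6.01, 5.53 and 5.77 with DMSO at 3 dpf and at 3.63, 6.13, 5.40 and 5.87 with E2. The low value was that of E2 replicate 1. With it the change was -0.57 (SE 0.53, limma adjusted p = 0.743), and without it 0.06. At 4 dpf the probe was at 7.60, 7.75, 7.45 and 7.25 with DMSO and at 6.96, 7.68, 7.03 and 7.05 with E2, lower in 4 of 4 pairs with overlapping groups and a change of -0.33 (SE 0.53, limma adjusted p = 1). Fitted alone in limma, this stage gave an unadjusted p of 0.0554 and an adjusted p of 0.893. A_15_P290506 was at background on 5 of the 8 arrays at 3 dpf and on 1 of 8 at 4 dpf. It differed by 0.14 at 3 dpf (SE 0.34) and by -0.19 at 4 dpf (SE 0.34), with groups that overlapped at both stages. Whether the response to E2 differed between stages was tested by the interaction of stage and E2, which had an unadjusted p of 0.165 for A_15_P111461 and of 0.0109 for A_15_P290506 in limma. After adjustment the interaction was called for 0 of the 11 probes, all with an adjusted p of 1, and for 0.0734% of all probes.

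For the hydroxylases that open each path, E2 and DMSO arrays overlapped at every stage. tph2 encodes the tryptophan hydroxylase of the serotonin neurons of the raphe, and its probe was above background on all 28 arrays. At 2 dpf it was at 6.85, 7.68 and 7.39 with DMSO and at 6.64, 7.52 and 7.21 with E2. E2 was lower in 3 of 3 pairs here, by 0.21, 0.15 and 0.18, and the fitted difference was -0.18 (SE 0.19) with a 95% interval of -0.58 to 0.23. Its changes at 1, 3 and 4 dpf were 0.15, -0.20 and -0.09, with intervals of -0.26 to 0.55, -0.55 to 0.15 and -0.44 to 0.26. The change of tph2 at 3 dpf was -0.14 without E2 replicate 1. tph1b is 1 of the zebrafish genes for the tryptophan hydroxylase that in mammals is found in gut and pineal gland. Its probe A_15_P487730 differed by -0.16, -0.01, -0.27 and 0.05 at the 4 stages, and its probe A_15_P100495 by -0.06, 0.06, -0.39 and 0.00. Without E2 replicate 1 the changes at 3 dpf were -0.04 and 0.03.

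tph1a is the other gene of that kind, and th2 is a second gene of the tyrosine hydroxylase family. tph1a was above background on 18 arrays and th2 on 24. The changes of tph1a with E2 were 0.29, 0.39, 0.61 and 0.03 in order of stage, with standard errors of 0.56 to 0.65. That at 3 dpf rested on E2 replicate 1, which read 4.88 where the other E2 arrays read 3.09, 3.00 and 3.16, and was 0.01 without it. th2 differed by -0.58, -0.04, 0.13 (-0.06 without E2 replicate 1) and -0.29, with standard errors of 0.49 to 0.57 on all arrays. It was lower with E2 in 4 of 4 pairs at 4 dpf, where the groups overlapped. Intervals of these dim probes reached beyond 1 in size on the log2 scale, so that a 2-fold change was not excluded with 3 or 4 pools.

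Dopamine β-hydroxylase, encoded by dbh, marks noradrenaline-producing cells. At 3 dpf its probe was at 4.26, 5.08, 4.95 and 5.01 with DMSO and at 0.78, 4.90, 5.25 and 5.24 with E2. The first E2 array stood more than 4 log2 units under the others, and the change went from -0.78 (SE 0.54) with it to 0.13 (SE 0.26) without it. At the other stages the change was -0.09, -0.09 and -0.20, and the groups overlapped.

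Monoamine oxidase has a single gene in zebrafish, mao. Its main probe, A_15_P103005, was the most precise of the set. At 3 dpf it was at 10.58, 10.59, 10.56 and 10.64 with DMSO and at 10.22, 10.48, 10.45 and 10.47 with E2. Every E2 array lay below every DMSO array, and E2 was lower in 4 of 4 pairs. The fitted change was nevertheless small, -0.18 (SE 0.13, 95% interval -0.46 to 0.09, limma adjusted p = 0.669), and it was also -0.18 without E2 replicate 1. At 1, 2 and 4 dpf this probe differed by 0.01, -0.04 and -0.11 with overlapping groups. The second mao probe, A_15_P112003, gave another value at 3 dpf. It read 6.90 in E2 replicate 1 against 4.23 to 5.23 in the other E2 arrays, which gave a change of 0.60 (SE 0.41) with that array and 0.02 without it.

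aanat2 encodes the pineal enzyme that sets the night-time rise of melatonin in zebrafish. Its probe was above background on 0 of the 27 arrays that measured it, and 1 spot, of DMSO replicate 3 at 4 dpf, was left out as an outlier. The signals lay between 0.39 and 2.57. No level or change of this gene can be read. Of 5 listed markers of pineal photoreceptors 4 had a probe, of which crx, otx5 and otx2b were above background on 28 arrays and exorh on 25. RNA of the whole embryo was measured, so that their signals cannot be assigned to the pineal gland.

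**Figure D2:**
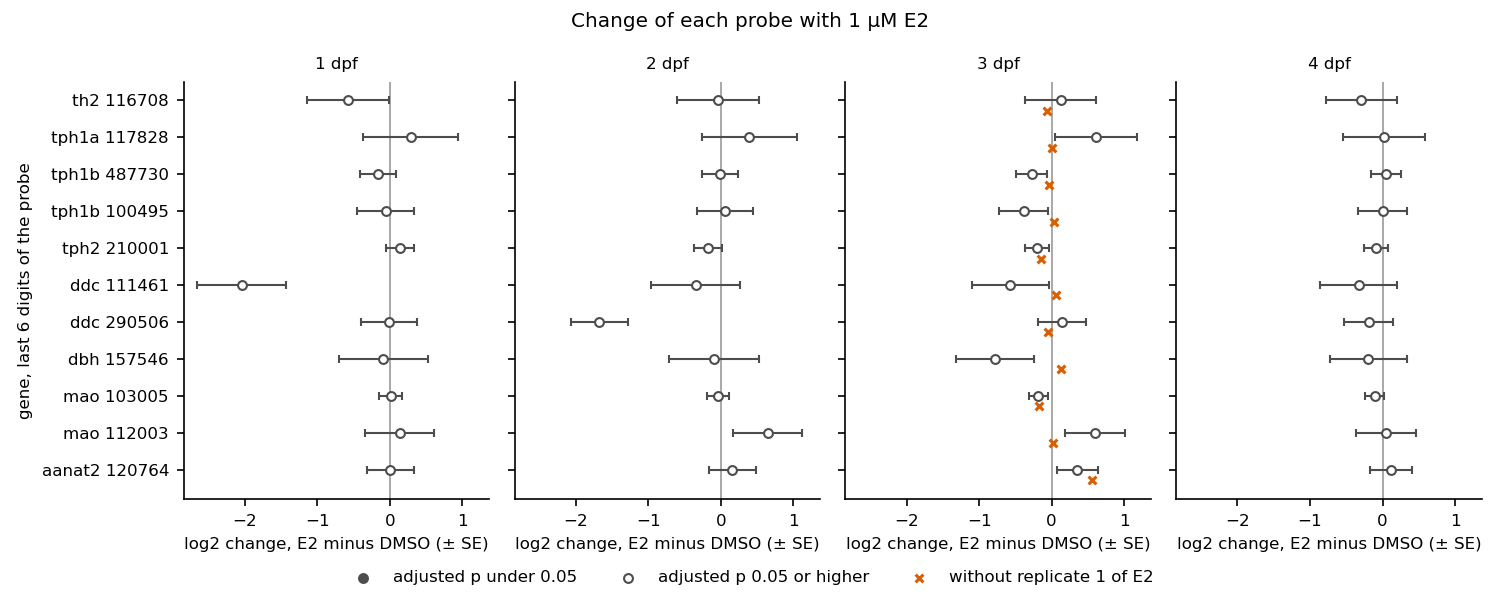
Change of each of the 11 probes with E2 at 1, 2, 3 and 4 dpf on the log2 scale, E2 minus DMSO, with its SE, and orange crosses for 3 dpf without E2 replicate 1. Only the ddc probes at 1 dpf (-2.04) and 2 dpf (-1.67) stand far from 0, no probe has an adjusted p under 0.05, and the changes of dbh (-0.78) and tph1a (0.61) at 3 dpf move to 0.13 and 0.01 without that array.

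The arrays also gave the course of the enzymes over development. In DMSO embryos the stage terms were significant at an adjusted p under 0.05 in limma for 8 of the 11 probes, and for 47.7% of all probes. The exceptions were dbh, aanat2 and the second tph1b probe. That tph1b probe had a limma adjusted p of 0.0841, which was 0.0206 without E2 replicate 1 at 3 dpf and 0.0019 with array weights. From 1 to 2 dpf 4 of 11 probes rose and 0 fell, against 12.3% and 12.8% of all probes. From 2 to 3 dpf 2 rose and 1 fell, against 8.97% and 7.29%, and from 3 to 4 dpf 3 rose and 0 fell, against 4.69% and 6.14%. The median change of the 11 probes was 0.54, 0.17 and 0.72 over the 3 steps, beside -0.09, -0.01 and -0.06 for all probes.

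mao rose at every step. The DMSO arrays of its main probe were at 8.79, 8.89 and 8.65 in the 1 dpf pools and 9.29, 9.79 and 9.56 a day later. The 3 dpf pools lay between 10.56 and 10.64, and those of 4 dpf read 11.35, 11.57, 11.68 and 11.70. No 2 neighbouring stages overlapped. The steps were 1.70-fold, 1.99-fold and 1.98-fold (log2 changes 0.77, 0.99 and 0.98, SE 0.13 to 0.15), with limma adjusted p of 0.000743, 8.13e-05 and 4.95e-05. In the 2 scan batches that held DMSO pools of every stage the steps were 0.70, 1.04 and 0.88 and 0.91, 1.04 and 1.09. Stage and slide were partly confounded. Slides 2 and 7 held only 1 and 2 dpf, slide 3 only 3 and 4 dpf, slide 5 only 3 dpf and slide 6 only 4 dpf. Steps within a scan batch can thus be steps between slides, and a slide block takes up part of the stage difference. The first step lost significance without replicate 3 (limma adjusted p = 0.0561).

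Among the tryptophan hydroxylases, the genes did not follow the same course. tph2 was at 5.06, 5.32 and 5.28 in the 1 dpf DMSO pools and at 6.85, 7.68 and 7.39 by 2 dpf. By 3 dpf the pools read 8.14, 8.30, 7.89 and 8.04, and these stages did not overlap. It rose 4.25-fold (log2 change 2.09, SE 0.19, limma adjusted p = 9.67e-08) and then 1.75-fold (0.81, SE 0.18, adjusted p = 0.00444). The second of these was not called with the slide as a block (limma adjusted p = 0.0968) or without replicate 3 (0.0584). From 3 to 4 dpf, where it read 8.44, 8.08, 8.42 and 8.24, the change was 0.20 (SE 0.17, adjusted p = 0.619).

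From 2 to 3 dpf tph1b fell while tph2 rose. Probe A_15_P487730 went from 8.41, 8.05 and 8.48 in the 2 dpf pools to 7.16, 7.19, 7.19 and 7.12 in those of 3 dpf, a fall of 2.16-fold (change -1.11, SE 0.23, limma adjusted p = 0.00225, 0.0699 without replicate 3). A_15_P100495 gave a change of the same size, -1.09 (SE 0.37), that was not called (adjusted p = 0.053). In the next step both were higher in 4 of 4 same-numbered arrays, by 0.39 and 0.36, and neither was called. tph1a went from 2.46, 2.71, 3.56 and 2.93 at 3 dpf, at background on 2 arrays, to 3.68, 4.04, 4.46 and 4.53 at 4 dpf. These groups did not overlap, and the change of 1.26 (SE 0.56) was not called for that step (limma adjusted p = 0.195), while the stage terms as a whole were (adjusted p = 0.0233).

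ddc rose at the first and the last step. Probe A_15_P111461 had DMSO means of 2.86, 4.75, 5.83 and 7.51 in order of stage and was above background on 1 of 3 arrays at 1 dpf and on every DMSO array after that. That 1 array read 4.66, within the range of 4.60 to 4.85 at 2 dpf, so that the groups of the first step overlapped. The steps of this probe were 1.90 (SE 0.61, limma adjusted p = 0.0266), 1.06 (SE 0.58, adjusted p = 0.257) and 1.68 (SE 0.53, adjusted p = 0.046). The last of these is 3.21-fold and was not called with the slide as a block (limma adjusted p = 0.0609). Without replicate 2 or replicate 3 neither the first step (limma adjusted p = 0.329 and 0.291) nor the last (0.19 and 0.3) was called, and without replicate 4 the last was not (0.138). Probe A_15_P290506 was at 3.70, 5.32, 3.43 and 3.75 with DMSO at 4 dpf against 2.66, 2.46, 2.15 and 2.54 at 3 dpf, a change of 1.60 (SE 0.34, limma adjusted p = 0.00352) that was not called with 75th percentile scaling (0.057) or without replicate 3 (0.0571). No fold change is given for it, since 3 of the 4 arrays at 3 dpf were at background. Its first step, 2.00 (SE 0.39, adjusted p = 0.000573), started from 3 arrays at background, so no fold change is given. With background correction by the normexp method the first step was 0.31 and 0.18 for the 2 probes and was not called for either (limma adjusted p = 0.217 and 0.182).

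**Figure D3:**
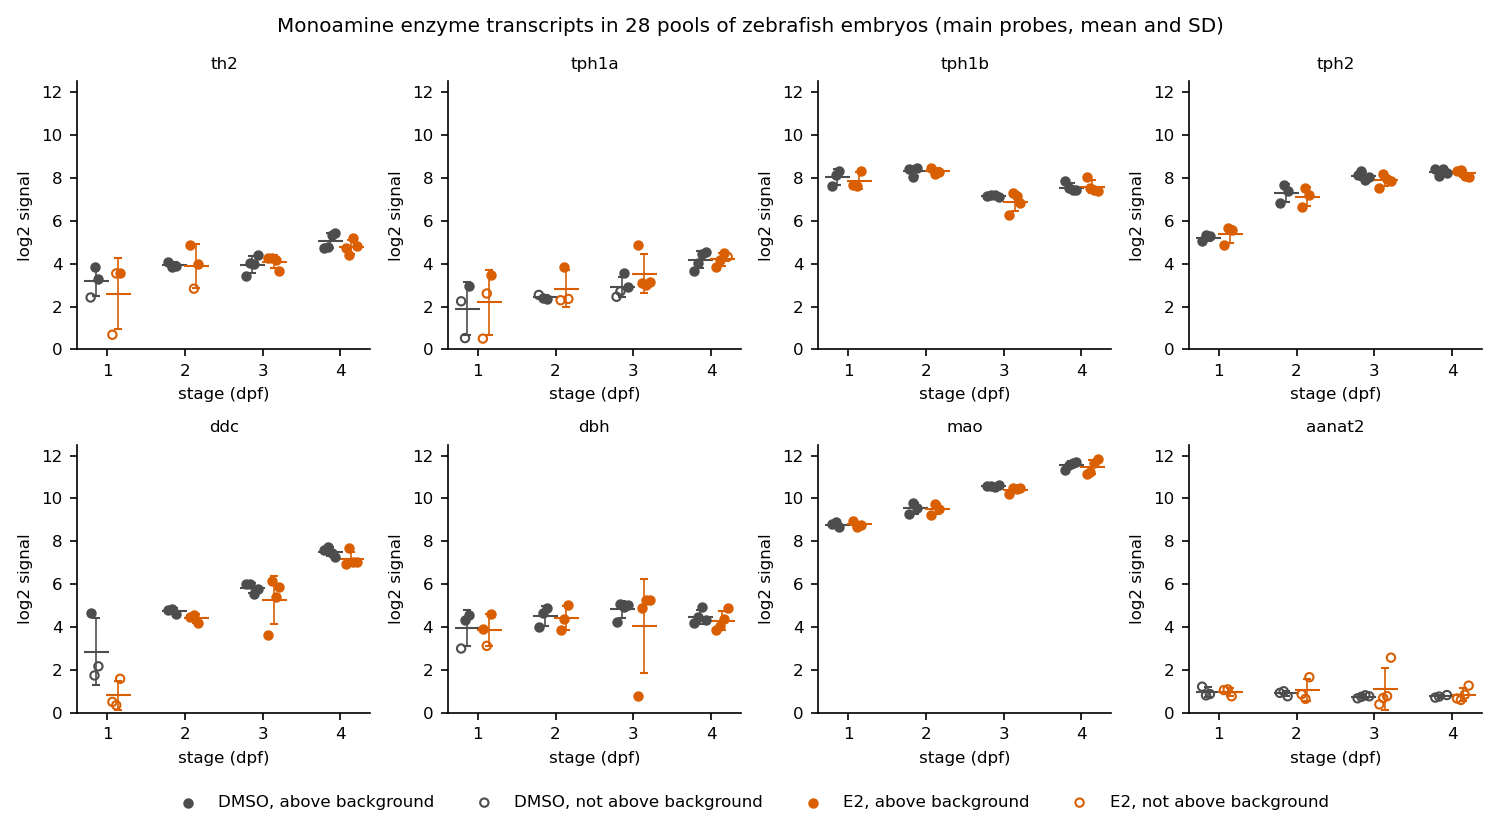
Log2 signal of the main probe of each of the 8 genes on each array by stage in dpf, DMSO in grey and E2 in orange, open symbols at background, bars for the mean and SD of a group of 3 or 4 arrays. DMSO means go from 8.78 to 11.6 in mao, from 5.22 to 8.30 in tph2 and from 2.86 to 7.51 in ddc, while dbh lies between 3.97 and 4.83 and aanat2 at background.

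th2 was higher at 4 dpf in 4 of 4 same-numbered arrays, going from 3.44, 4.01, 3.97 and 4.41 at 3 dpf to 4.75, 4.80, 5.33 and 5.44. The step of 1.12 (SE 0.49) was not called (limma adjusted p = 0.182), and its stage terms were (adjusted p = 0.0406). dbh was above background on 26 of 28 arrays and no stage difference was called, with DMSO means of 3.97, 4.51, 4.83 and 4.48 (limma adjusted p = 0.808 for the stage terms). Its spread included E2 replicate 1 at 3 dpf, and without that array this limma adjusted p was 0.0952. Scaling to the 75th percentile was the only alternative that called the stage terms of dbh (limma adjusted p = 0.027). mao probe A_15_P112003 had stage terms with an adjusted p of 0.000666, and no single step of it was called. With the slide as a block the stage terms held for both ddc probes, tph2 and the main mao probe, 4 of 11, and not for tph1b (limma adjusted p = 0.0608), tph1a (0.225), th2 (0.346) or A_15_P112003 (0.103). Embryos of 4 dpf were collected 8 h past a multiple of 24 h after fertilization and those of the other stages at a multiple of it, so that stage and time of day cannot be told apart in the last step.

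**Figure D4:**
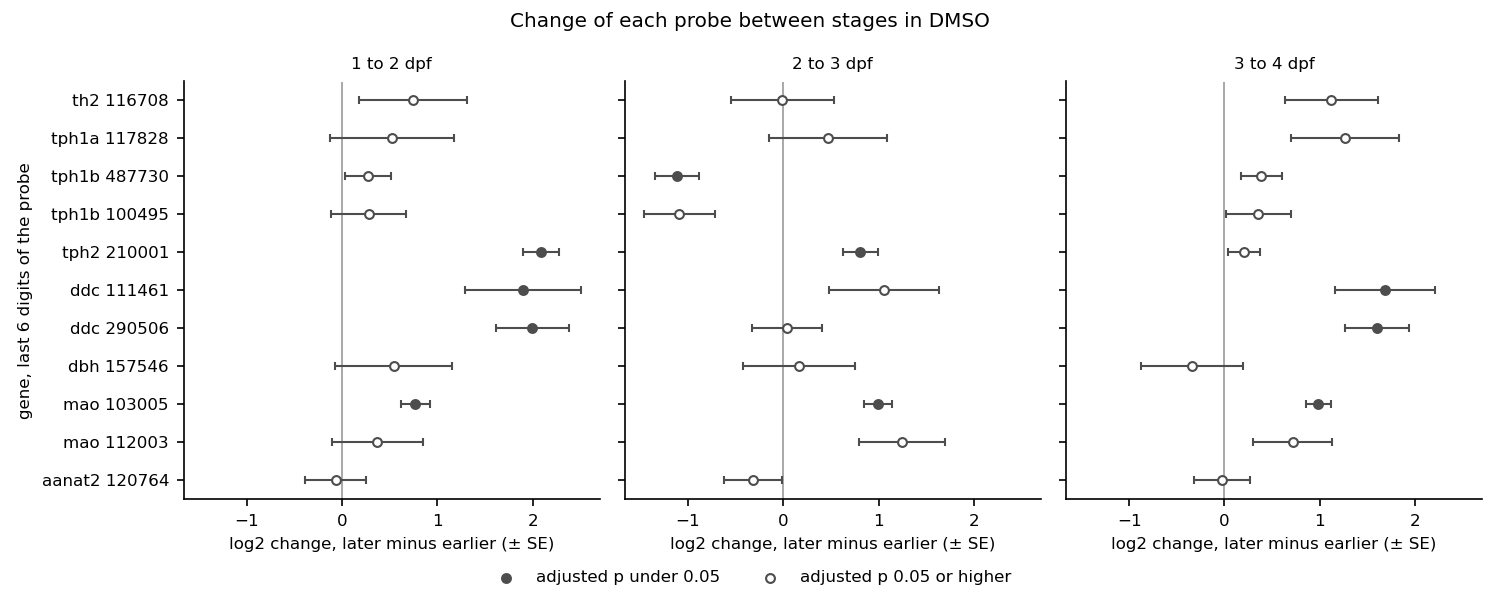
Change of each of the 11 probes between neighbouring stages in DMSO embryos on the log2 scale, later minus earlier, with its SE, filled where the limma adjusted p was under 0.05. The main mao probe is filled at every step (0.77, 0.99 and 0.98), tph2 at the first 2 (2.09 and 0.81), both ddc probes at the first and last, and tph1b A_15_P487730 (-1.11) is the only filled point below 0.

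Over the 28 arrays, which share their stages, the main probes of ddc, tph2 and mao were correlated with each other, with Pearson's r of 0.88 between ddc and tph2, 0.90 between ddc and mao and 0.88 between tph2 and mao. tph1b A_15_P487730 had an r of -0.32 with ddc, -0.44 with tph2 and -0.50 with mao. The probes of 1 gene had an r of 0.83 for ddc, 0.85 for tph1b and 0.81 for mao. Among all named genes, those with the highest r with ddc over these arrays were asb10 (0.942), crhb (0.937), which encodes a corticotropin-releasing hormone, and tspan3b (0.930). Those most like tph2 were abi3bpb (0.994), ahr2 (0.989), an aryl hydrocarbon receptor, and luzp2 (0.987).

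Genes that serve the same path were described from lists of such genes. Tetrahydrobiopterin, the cofactor of tyrosine and tryptophan hydroxylase, is made and recycled by enzymes of which 10 were listed and 5 had a probe. Stage terms in DMSO were significant for 3 of the 5 in limma, and the median change over the 3 steps was 0.16, -0.27 and 0.12, to be read, as for the lists that follow, beside -0.09, -0.01 and -0.06 for all probes. Counts in these lists are likewise to be read beside the 47.7% of all probes with significant stage terms. Over the 3 steps 12.3%, 8.97% and 4.69% of all probes rose and 12.8%, 7.29% and 6.14% fell. gch2, a GTP cyclohydrolase that opens cofactor and pigment synthesis, rose by 1.51 from 1 to 2 dpf (SE 0.50, adjusted p = 0.0328), a call that 5 of 12 alternatives lost, no replicate block and leaving out replicate 1, 2 or 3 among them. It then fell by 3.68 from 3 to 4 dpf (SE 0.44, adjusted p = 1.15e-05), opposite to the change of ddc in that step. In the same step 0 of 6 melanophore markers had a positive change (median -0.83). How gch2 relates to ddc or to pigment cells was not tested. The listed gene gch1 had no matched probe. The 4 dpf DMSO arrays of gch2 were at 9.82, 8.40, 7.72 and 6.99, all below those of 3 dpf at 12.4, 12.1, 11.6 and 11.6. pts, which acts after it, fell by 1.26 from 2 to 3 dpf and qdpra, which recycles the cofactor, rose by 0.71 from 1 to 2 dpf (limma adjusted p = 0.0313 and 0.0346). The call for pts was lost in 4 alternatives, with the slide or scan batch as a block and without replicate 3 or 4. That for qdpra was lost in 5, with no replicate block and without any 1 of the 4 replicate numbers. With E2 0 of the 5 passed either criterion at any stage.

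Reuptake transporters had probes for 2 of 5 listed genes, and both changed with stage (median change 1.65, 0.95 and -0.02). slc6a4a, the serotonin transporter, rose by 1.32 and then by 1.36 (SE 0.28 and 0.26, limma adjusted p = 0.0012 and 0.00125), as tph2 did in the same steps. Its first call was lost without replicate 2 (limma adjusted p = 0.0503) and its second with the slide as a block (0.106). slc6a3, the dopamine transporter, rose by 1.98 from 1 to 2 dpf (SE 0.61, adjusted p = 0.0205), which was not called in 4 of 12 alternatives, without replicate 2 or 3, with no replicate block and with the scan batch as a block. Neither passed a criterion with E2. slc6a3 had a change of -1.22 at 3 dpf (limma adjusted p = 0.654) that was -0.27 without E2 replicate 1, which read 0.80 where the other E2 arrays read 5.54, 6.47 and 6.33.

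Of 10 other enzymes of amine metabolism 8 had a probe, and 5 of them differed between stages (median change 0.22, 0.06 and 0.23 over the 3 steps). aanat1, the acetyltransferase of the retina, rose by 1.50 from 2 to 3 dpf (limma adjusted p = 0.00398). hdc, which makes histamine, rose by 0.69 in the same step (adjusted p = 0.0474), and hnmt, which inactivates it, fell by 1.68 from 1 to 2 dpf and rose by 1.17 from 3 to 4 dpf (adjusted p = 3.75e-05 and 0.00128). The aldehyde dehydrogenase genes aldh2.1 and aldh2.2, whose products act on the aldehydes left by monoamine oxidase, were called in different steps: aldh2.1 fell by 2.89 from 2 to 3 dpf and aldh2.2 rose by 0.83 from 1 to 2 dpf (adjusted p = 0.00813 and 0.0014). Of these calls, that for hdc was lost in 7 of 12 alternatives, those for aanat1 (without replicate 2 or 3), aldh2.1 (slide as a block, without replicate 3) and the rise of hnmt (no replicate block, without replicate 2) in 2 each, and the others in 0. With E2 0 of the 8 passed either criterion.

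Transcription factors of monoaminergic neurons were 17 listed genes, 13 of them with a probe, and 9 differed between stages (median change 0.71, -0.08 and -0.42). From 1 to 2 dpf 8 rose and 0 fell, among them nr4a2a by 2.28, nr4a2b by 2.32, otpb by 2.25 and phox2a by 1.91, factors of dopaminergic or noradrenergic neurons (limma adjusted p = 2.84e-07, 2.64e-06, 4.12e-06 and 2.02e-07). From 2 to 3 dpf 1 rose and 3 fell, and from 3 to 4 dpf 0 rose and 3 fell, of which otpb fell in both (by 1.50 and 0.79). The 4 rises named for the first step and the first fall of otpb were called in each of 12 alternatives. The count of 8 rises in the first step was 5 without replicate 2, and the single rise from 2 to 3 dpf, of nr4a2b, was lost in 6 of 12. The count of 3 that fell in the last step was 0 with no replicate block or without replicate 4, 1 without replicate 2 or 3, 2 with the scan batch as a block, 5 with array weights, and 6 with normexp or without E2 replicate 1 at 3 dpf. With E2 0 of the 13 passed either criterion.

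Of 43 listed amine and melatonin receptors 14 had a probe and 12 differed between stages, with 7 rising in each of the first 2 steps and 0 falling (median change 0.84, 0.86 and 0.24). The first count was 4 with normexp, and both were 4 without replicate 2 or 3, while the second was 2 with the slide as a block. adra2a, an adrenergic receptor, rose by 2.02 from 1 to 2 dpf and mtnr1aa, a melatonin receptor, by 1.60 and then 2.15 (limma adjusted p = 3.21e-06, 0.00299 and 0.000288). The first rise of mtnr1aa started from 1 dpf DMSO arrays that were all at background. It was not called with normexp or without replicate 3. Among these lists of genes that serve the path, the β-adrenergic receptor gene adrb2b was the 1 gene to pass the study's thresholds with E2. It passed at 3 dpf, where 0.766% of all probes did. At 3 dpf it was at 7.16, 6.98, 6.25 and 6.51 with DMSO and at 5.61, 6.39, 6.03 and 6.11 with E2, lower in each pair with overlapping groups. The change was -0.69 (SE 0.17, limma adjusted p = 0.654), and -0.51 without E2 replicate 1 (limma adjusted p = 1), when it still met the thresholds. Without that array 170 of all 43603 probes met them.

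Markers of neurons in general rose in the first 2 steps, and most did not in the last. Of 9 listed genes, 7 had a probe, and all 7 were above background on 28 arrays and rose from 1 to 2 dpf. From 2 to 3 dpf 6 of 7 had a positive change, and from 3 to 4 dpf 2 of 7. The median change of the 7 markers was 2.06, 0.87 and -0.06 over the 3 steps. Their summed level in DMSO embryos lay between 12.3 and 12.8 on the log2 scale at 1 dpf, then 14.3 and 14.8, 15.0 and 15.2, and 14.8 and 15.3 at the following stages. With E2 the ranges were 12.2 to 12.6, 14.0 to 14.5, 15.1 to 15.3 and 14.6 to 15.2. Markers of other tissues also rose from 1 to 2 dpf. Muscle, erythroid and pineal markers were called higher in 4 of 4 each, as were 4 of 6 melanophore and 2 of 3 liver markers. The median changes were 2.97, 1.60, 2.49, 2.16 and 1.02. From 3 to 4 dpf they were -0.08, -1.34, -0.36, -0.83 and -0.02 in that order. The liver marker fabp10a rose by 3.59 in this last step, as the 1 of 3 liver markers with a positive change. The part of these rises in the course of the enzymes was not tested. None of the neuron markers passed either criterion with E2 at any stage. At 1 and at 2 dpf, where the ddc differences were seen, 0 of the 7 markers were higher with E2, with a median change of -0.18 and -0.15 and summed levels that overlapped between treatments. None of the markers of other tissues was called at 1 dpf, where 0 of 4 muscle markers, 0 of 3 liver markers and 1 of 6 melanophore markers were higher with E2 (median change -0.41, -0.27 and -0.41), against 1 of 4 erythroid and 3 of 4 pineal markers (-0.10 and 0.04). At 2 dpf 2 of 4, 0 of 3, 2 of 6, 3 of 4 and 1 of 4 were higher, in the same order. Of all these, the liver fatty acid binding protein gene fabp10a passed the study's thresholds, at 2 dpf (change -2.02, SE 0.54, limma adjusted p = 1). It also passed them at 3 dpf, with a change of -2.65 (SE 0.47, limma adjusted p = 0.0572). Without E2 replicate 1 that change was again -2.65 and past the thresholds (limma adjusted p = 0.152). The part of these markers in the ddc differences was not tested.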

How the data were processed

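RNA of 28 pools of zebrafish embryos was labelled with 1 dye and hybridized to Agilent arrays. Per the file headers the scanner software was Feature Extraction 10.7.3.1, whereas the submitters' processing notes name version 11.0.1.1. The authors deposited, per spot, a processed signal, which is an intensity on a linear scale with background and spatial trend subtracted and no normalization between arrays, the median signal and local background intensity, and other marks such as the flag for spots well above background. The series' own table of values repeats the processed signal and was not used. For this report 1417 control spots and spots marked as outliers (3 to 529 per array) were left out, signals were log2 transformed and quantile normalized over the arrays, and spots of a probe were averaged, which left 43603 probes. log2 values are thus computed here from the deposited intensities.

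limma 3.58.1 under R 4.3.3 was fitted to all arrays with 8 groups and a block for the replicate number (4 levels). Each probe thus has 1 spread shared by all groups, which can be wider or narrower than that of a single stage. P-values were adjusted over all probes by the Benjamini-Hochberg method. The study's thresholds (p of at most 0.01 with a fold change of at least 1.4) were a second criterion. The labels give both treatments the same replicate numbers, and same-numbered arrays deviated together from their group means in 14 of 14 pairs (Pearson's r across probes 0.173 to 0.649, median 0.318, against a median of -0.202 between different numbers), and the study's methods draw replicates from different spawnings, which was the ground for the block. These correlations were taken within a stage, whereas the block is shared by all stages. Pairing particular to 1 stage thus stays in the spread, so that the SE of a change with E2 can be too wide. Precision is also limited by how many arrays there were. The fit was tested on simulated data.

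Where no array of 1 group was above background, its arrays were raised to the lowest signal that passed the background test on the same array, and no fold change is given where the resulting bound was under 1. Alternatives were no replicate block, scaling to the 75th percentile, normexp background correction with an offset of 50, a filter on probes above background on fewer than 3 arrays, the slide (7) or scan batch (3) as a block, array weights, each stage alone, an analysis of variance and leaving out arrays. The analysis of variance was modelled on the methods: replicate effects were removed first and the treatments were then compared within each stage. The normexp correction used the median signal of each spot.

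Every member with a probe is described with all its probes, the one with the highest mean signal first. Of other lists, every gene with a probe was counted. Some of the genes past a criterion are named with values, and others past it enter only the counts. Members, lists and tests were chosen with earlier results of these data known. Gene names are those of RefSeq for GRCz12tu. Figures were drawn with Python 3.11.15 and matplotlib 3.10.9.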

Additional observations from a re-analysis of the deposited data

Results flagged for a closer look

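Among 43 sets of 4 arrays (1 probe in 1 group at 3 or 4 dpf) 10 held an array far from the other 3, as the ratio of its gap to the range of the group showed, where chance gives about 1 in 20. In 4 of them it was E2 replicate 1 at 3 dpf: dbh (ratio 0.924), tph1a (0.917), tph1b A_15_P100495 (0.866) and the main mao probe (0.865). That array was low in dbh, tph1b and mao and high in tph1a, and 96.1% of its spots were above background. Replicate 2 at 4 dpf was high for ddc, in A_15_P111461 with E2 (0.869) and in A_15_P290506 with E2 (0.942) and with DMSO (0.83), so that both members of that pair stood apart in the same direction. The remaining 3 were a low th2 signal in E2 replicate 4 at 3 dpf (0.83), a low dbh signal in DMSO replicate 1 at 3 dpf (0.833), which is the partner of the low E2 array, and a high signal of mao A_15_P112003 in DMSO replicate 3 at 4 dpf (0.876).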

How the results depend on the processing

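No alternative gave a monoamine enzyme probe an adjusted p under 0.05 with E2, the lowest in limma being 0.288, for ddc A_15_P290506 at 2 dpf without replicate 1. The counts of 1 probe past the study's thresholds at 1 and at 2 dpf were both 0 with 75th percentile scaling, with normexp correction, with each stage fitted alone and with an analysis of variance modelled on the methods, and both were 1 with no replicate block. That analysis of variance only approximates the study's own, in which ddc is listed as lowered by E2 at both stages. Leaving out 1 array gave 0 to 1 at 1 dpf and 1 to 1 at 2 dpf. The count was 0 at 1 dpf without DMSO replicate 1, E2 replicate 1 or E2 replicate 2, where the change of ddc A_15_P111461 was -1.02, -1.86 and -1.74. Over all alternatives this change lay between -2.77 and -0.30, and that of A_15_P290506 at 2 dpf between -2.19 and -0.18.

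The count of 8 probes that differed between stages in DMSO was also 8 with no replicate block, 4 with the slide as a block, and 5 to 9 when 1 replicate number was left out, 5 of them without replicate 3. Among the ddc changes with E2, 4 turned sign. A_15_P290506 at 1 dpf (-0.01) became 0.24 with 75th percentile scaling, 0.17 with the slide as a block and 0.08 with array weights, and -0.35 to 0.31 without 1 array. At 3 dpf (0.14) it became -0.02 with normexp, -0.15 with array weights and -0.07 to 0.32 without 1 array, and at 4 dpf (-0.19) 0.00 with array weights and -0.37 to 0.08 without 1 array. A_15_P111461 at 3 dpf (-0.57) became 0.08 with 75th percentile scaling and -0.89 to 0.06 without 1 array. Of 278 alternative values, which include counts of probes, 240 were classed as the same, 13 as moved, 14 as reversed and 11 as weaker. Counts of 0 that stayed at 0 were among the same, as were stage counts of 7 or 9 in place of 8. Signals near background limit ddc at 1 and 2 dpf, tph1a and th2 most, and aanat2 wholly.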
